A study of Mus musculus with 22 samples.

Results

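The comparison described here asked which genes changed differently during culture in pancreatic dendritic cells (DCs) of NOD and C57BL/6 mice. It uses the 15 of the 22 arrays that hold freshly sorted cells or cells cultured with PBS, chosen by the group named in the sample labels and by no measured value. NOD mice are a strain that develops autoimmune diabetes spontaneously, and C57BL/6 mice are the non-diabetic control strain. All mice were females of 5 weeks, before diabetes, and each array was made from cells of 10 pooled pancreases, so that a replicate is a pool and not a mouse. The cells were CD11c+CD8α- DCs, enriched with CD45 beads from digested pancreas and sorted by FACS. Steady-state cells were lysed directly (4 C57BL/6 and 3 NOD arrays), and PBS cells were cultured for 18 h in RPMI medium with fetal calf serum and beta-mercaptoethanol without LPS (4 arrays per strain). The other 7 arrays, of LPS-treated cells, entered only an alternative fit. Expression was read on Affymetrix mouse arrays and is given per probe set on the log2 scale, where 1 unit is a 2-fold difference. The interaction is the culture effect in NOD (PBS minus steady state) minus the culture effect in C57BL/6, so a positive value means a larger rise or a smaller fall in NOD DCs. Adjusted p-values are Benjamini-Hochberg values from limma over all probe sets, and a gene was called at an adjusted p under 0.1.

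CD8α- DCs are the myeloid branch of conventional DCs, which take up antigen, carry it on MHC class II and present it to CD4+ T cells. Isolation and culture are strong stimuli in themselves: DCs removed from tissue are known to mature, to switch on interferon and NF-κB target genes and to leave the cell cycle. In NOD mice such DCs are among the cells that accumulate around the islets before diabetes. The genes below are ordered by these roles: cell division, interferon response, cytokines and their feedback regulators, and antigen presentation.

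The promoters of 4 genes are printed because the interferon-stimulated and the mitotic genes were the lists with the most members called in 1 direction, and these promoters show the sequence elements that such genes are known for. They are RefSeq sequences of GRCm38.p6 that span the annotated start, most of each lying before it, in the direction of transcription. In Mki67 and Ccnb2 the capitals mark the cell cycle element CHR (TTTGAA) and the CCAAT box (CCAAT), each searched on both strands. In Rsad2 and Ifit3 they mark the core of the interferon-stimulated response element (ISRE, GAAA and GAAA with any 2 bases between them, both strands). The windows are chr7:135716330-135716629 (minus strand) for Mki67, chr9:70421505-70421804 (minus) for Ccnb2, chr12:26456403-26456702 (minus) for Rsad2 and chr19:34583279-34583578 (plus) for Ifit3.
Mki67: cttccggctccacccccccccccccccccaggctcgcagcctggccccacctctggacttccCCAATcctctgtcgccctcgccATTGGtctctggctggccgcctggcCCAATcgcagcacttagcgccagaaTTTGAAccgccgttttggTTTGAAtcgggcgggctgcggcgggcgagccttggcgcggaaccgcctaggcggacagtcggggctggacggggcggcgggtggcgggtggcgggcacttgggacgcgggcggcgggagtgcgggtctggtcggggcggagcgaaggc
Ccnb2: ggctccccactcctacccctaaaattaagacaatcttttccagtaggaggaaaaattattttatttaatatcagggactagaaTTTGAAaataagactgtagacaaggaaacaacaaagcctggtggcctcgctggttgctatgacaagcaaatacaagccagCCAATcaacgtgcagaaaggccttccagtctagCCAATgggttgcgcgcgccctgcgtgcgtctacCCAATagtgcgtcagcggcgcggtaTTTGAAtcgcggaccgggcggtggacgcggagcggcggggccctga
Rsad2: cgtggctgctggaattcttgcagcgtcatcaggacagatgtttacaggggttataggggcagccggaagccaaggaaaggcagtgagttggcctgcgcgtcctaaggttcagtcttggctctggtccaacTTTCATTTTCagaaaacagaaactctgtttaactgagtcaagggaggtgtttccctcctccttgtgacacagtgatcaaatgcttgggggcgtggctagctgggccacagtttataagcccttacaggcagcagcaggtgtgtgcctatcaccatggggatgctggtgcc
Ifit3: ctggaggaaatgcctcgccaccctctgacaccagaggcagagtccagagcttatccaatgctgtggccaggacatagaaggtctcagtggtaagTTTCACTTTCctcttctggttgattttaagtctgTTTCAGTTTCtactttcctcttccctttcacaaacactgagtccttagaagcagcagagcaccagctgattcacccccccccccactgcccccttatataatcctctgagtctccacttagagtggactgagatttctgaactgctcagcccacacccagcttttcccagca
A CHR was found in 18 of the 23 promoters of the mitotic list that the reference table holds (78.3%), against 18.1% of all 27025 promoters. A CCAAT box was found in 19 of the 23 (82.6%, against 37.9%). Of 24 promoters of the S phase list 3 held a CHR (12.5%) and 15 a CCAAT box (62.5%). The ISRE core was found in 14 of 22 promoters of the interferon list (63.6%, against 3.49% of all promoters) and in none of 17 promoters of the cytokine list. Members called in the interaction had much the same shares as their whole lists: a CHR in 11 of 14 (78.6%) and an ISRE core in 10 of 16 (62.5%). A match is a description of these letters in this window and not a mapped binding site.

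The arrays resembled each other closely. Replicates correlated at r = 0.984 to 0.997, no 2 arrays were identical, and array medians lay between 7.63 and 7.68 with lower quartiles of 6.03 to 6.35. Markers of the sorted cell were bright: Sirpa means were 12.96 to 13.26 and H2-Ab1 means 13.20 to 14.37 over the 4 groups, and Itgax, which encodes CD11c, was at 11.32 and 10.89 before and at 9.03 and 8.93 after culture (C57BL/6 and NOD). The macrophage markers Adgre1 (11.89 to 13.05) and Cd68 (13.39 to 14.12) were far above the array medians as well, so the label of a conventional DC is not exclusive on these arrays. Cd8a, which the gate removes at the protein level, lay at 7.56 and 7.78 at steady state and at 9.24 and 8.45 after PBS. The log2 signal of the control probe sets for the 3′ end of Gapdh minus that for its 5′ end, a sign of RNA length, was 1.96 to 3.17 in C57BL/6 and 0.98 to 2.35 in NOD at steady state, and 0.97 to 1.25 and 0.89 to 1.45 after PBS. It was higher at steady state than after PBS on most arrays, and the strains overlapped in each condition. The NOD steady-state values were 2.35, 0.98 and 1.69 for replicates 1, 4 and 6. Without NOD steady state replicate 4 the count of interactions given below was the lowest among the fits with 1 array left out. The part of this signal in the results below was not tested.

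The culture effect differed between the strains for 3063 of 45037 probe sets (6.8%), of which 1793 were higher and 1270 lower in NOD. At an unadjusted p under 0.05 the number was 7323. Taking each gene by its brightest probe set, 905 of 18194 genes were called higher (4.97%) and 520 lower (2.86%). Over all genes the interaction was centred on 0, with a median of 0.01 and 51.2% of genes above 0. By comparison, culture itself changed most genes: 73.1% were called in NOD and 77.7% in C57BL/6. A strain difference was called for 11.6% of genes at steady state and for 15.4% after PBS. Over the alternative fits the probe sets with an interaction numbered 649 (replicate number within strain as a block) to 5586 (array weights). They numbered 4828 with the arrays of a replicate number within a condition as a block, which was chosen after seeing the data. Without NOD steady state replicate 4 they numbered 1955.

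**Figure D1:**
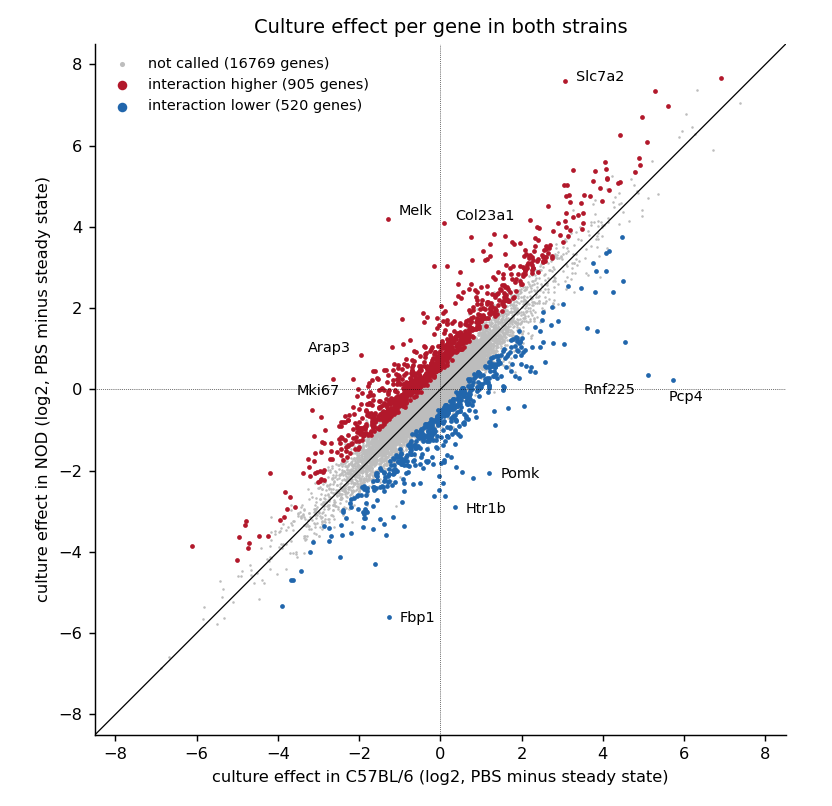
Culture effect of each of 18194 genes, C57BL/6 on the x axis and NOD on the y axis (log2, PBS minus steady state), with the line of equal effects. Genes called higher (905, red) lie above the line and genes called lower (520, blue) below it. Melk rose in NOD and fell in C57BL/6, Pcp4 rose in C57BL/6 with no call in NOD, and Rnf225 rose by 5.12 in C57BL/6 and by 0.36 in NOD.

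Most of the 1425 called genes changed by different amounts in the same direction. In 404 of them expression rose and in 406 it fell in both strains, 242 were called for a culture effect in NOD alone and 244 in C57BL/6 alone, and 129 changed in opposite directions. Read the other way, 543 genes had a called strain difference at steady state but not after PBS, 607 after PBS but not at steady state, 119 in both with the same sign and 82 in both with opposite signs. For 74 genes the difference was called at neither. These strain differences are made from the same arrays as the interaction, which contains the steady-state difference with a minus sign, so they are the parts of the interaction and no separate evidence for it. The interaction was at least 2-fold for 451 genes.

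Melk, a kinase expressed in dividing and progenitor cells, had the largest positive interaction. Its values were 8.74, 8.66, 8.53 and 9.11 in C57BL/6 at steady state and 7.85, 7.30, 7.65 and 7.06 after PBS. In NOD they were 7.84, 7.63 and 7.88 at steady state and 12.18, 12.02, 11.83 and 11.91 after PBS. All 4 NOD PBS arrays stood above every other array, and the interaction was 5.50 (SE 0.23, adjusted p = 7.76e-10). Melk thus fell in C57BL/6 DCs (-1.29) and rose in NOD DCs (4.20).

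Slc7a2, a transporter of arginine and other cationic amino acids, rose in both strains but from very different levels. In C57BL/6 it went from 8.52, 8.39, 8.72 and 8.62 to 11.42, 12.01, 11.72 and 11.39. In NOD it went from 5.56, 5.66 and 5.58, under the lower quartile of the arrays, to 13.05, 13.37, 13.46 and 12.93. The strains did not overlap in either condition and changed order between them, with an interaction of 4.53 (SE 0.21, adjusted p = 1.6e-09) that all 4 probe sets of the gene shared in direction (2.88 to 4.53).

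Other genes of the upper end rose mainly in NOD. Col23a1, a transmembrane collagen, was at 6.92 ± 0.07 and 7.02 ± 0.20 (SD, n = 4) in C57BL/6 before and after culture. In NOD it went from 7.50 ± 0.21 (SD, n = 3) to 11.59 ± 0.23 (SD, n = 4), an interaction of 3.99 (SE 0.19). Postn (periostin, a matricellular protein) reached 11.40 ± 0.04 in NOD against 7.21 ± 0.23 in C57BL/6 after culture, and its interaction was 3.20 (SE 0.24, adjusted p = 2.21e-07). Adamts1, a secreted metalloprotease, did not differ at steady state beyond the spread (7.26 ± 0.34 and 7.17 ± 0.38) and was 2.78 higher in NOD after PBS, with an interaction of 2.86 (SE 0.35, adjusted p = 8.16e-05). Hmga2, an architectural chromatin protein, rose by 0.76 in C57BL/6 and by 3.75 in NOD (interaction 2.99, SE 0.26). Gbp2b, an interferon-induced GTPase, rose by 0.49 and 2.90 (interaction 2.41, SE 0.23).

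In 2 further genes of the upper end the larger change was a fall in C57BL/6. Arap3, a GTPase-activating protein, had a mean of 11.07 at steady state and 9.10 after PBS in C57BL/6, whereas in NOD it rose from 9.24 to 10.08. The interaction was 2.80 (SE 0.20, adjusted p = 1.63e-07), and the strain difference changed sign from -1.82 to 0.98. H60c, a ligand of the activating receptor NKG2D, fell in C57BL/6 from 9.15 ± 0.24 to 6.51 ± 0.22. Its NOD arrays lay between 5.02 and 5.91 throughout, under the lower quartile, so that a change in NOD was not measurable and the interaction of 2.88 (SE 0.25) rests on the C57BL/6 arrays. The rest of the 15 largest positive values were those of Smim13, Reg2, Plpp3, 2610035D17Rik, Tpx2 and Cacnb4, from 2.36 to 2.67.

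Pcp4, a small calmodulin-binding protein, had the largest negative interaction. Its C57BL/6 values were 6.79, 6.47, 6.47 and 6.88 at steady state and 12.58, 12.59, 11.91 and 12.39 after PBS. Its NOD values were 6.91, 6.24 and 7.09 before and 7.20, 6.77, 7.07 and 6.89 after culture. Only the C57BL/6 PBS arrays stood apart, and the interaction was -5.48 (SE 0.27, adjusted p = 1.78e-09). Rnf225 had the same form, from 5.80 ± 0.11 to 10.92 ± 0.47 in C57BL/6 and from 6.09 ± 0.05 to 6.45 ± 0.14 in NOD (interaction -4.76, SE 0.25), and both of its probe sets were called lower. Lhx2, a LIM homeodomain transcription factor, rose by 4.55 in C57BL/6 and by 1.16 in NOD, an interaction of -3.39 (SE 0.20, adjusted p = 1.9e-08).

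Other genes of the lower end started high in NOD and lost that level in culture. Fbp1, the gluconeogenic fructose-bisphosphatase, was at 10.32, 9.72 and 9.91 in NOD at steady state and at 4.29, 4.61, 4.40 and 4.23 after PBS. In C57BL/6 it was at 5.50, 5.42, 5.00 and 6.35, mostly under the lower quartile, and at 4.59, 4.34, 4.17 and 4.11 after PBS. The strains overlapped after culture, where all values lay under the lower quartile of the arrays, so the size of each fall is uncertain. The interaction was -4.33 (SE 0.32, adjusted p = 1.96e-07). Htr1b, a serotonin receptor, fell from 11.21 ± 0.19 to 8.31 ± 0.14 in NOD and rose from 7.72 ± 0.10 to 8.07 ± 0.30 in C57BL/6 (interaction -3.25, SE 0.20), and Tafa5, a secreted protein, fell by 2.62 in NOD with no call in C57BL/6 (interaction -2.73, SE 0.21).

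Pomk and Hgsnat, which are next to each other on chromosome 8 of the reference, moved alike. Pomk, a kinase of O-mannosyl glycans, went from 11.21 ± 0.14 to 12.41 ± 0.18 in C57BL/6 and from 10.40 ± 0.18 to 8.34 ± 0.29 in NOD. Hgsnat, a lysosomal enzyme of heparan sulfate breakdown, went from 11.68 ± 0.12 to 12.48 ± 0.14 and from 10.67 ± 0.13 to 8.49 ± 0.18. The interactions were -3.26 (SE 0.21) and -2.99 (SE 0.17), with strain differences after PBS of -4.07 and -3.99. For Pomk 2 of 3 probe sets were called lower and the other was at 0.19. Hgsnat, Pomk, Htr1b, Arap3 and Melk were the 5 largest interactions among genes whose culture effects were called in opposite directions.

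**Figure D2:**
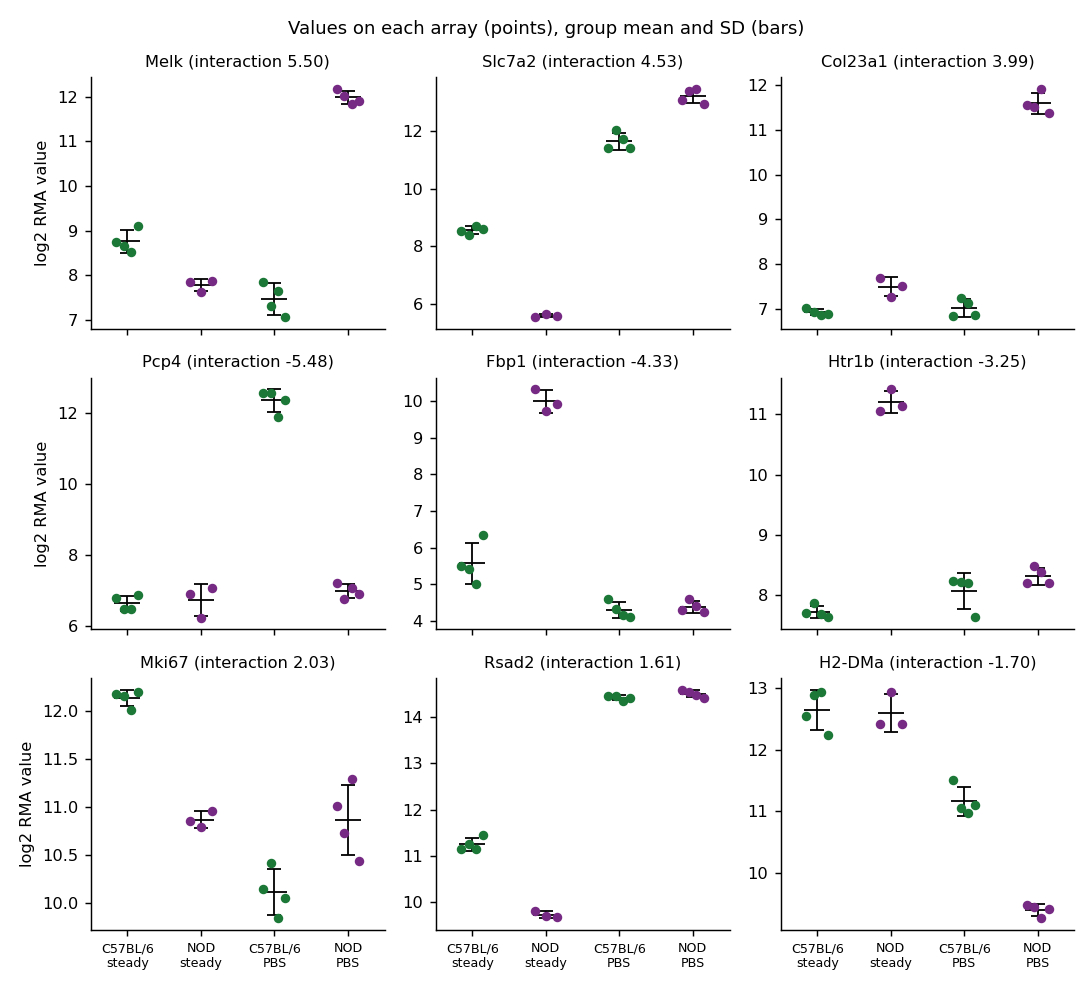
Log2 values of 9 genes on each of the 15 arrays (points; C57BL/6 green, NOD purple), with group means and SD. Melk, Slc7a2 and Col23a1 end highest in the NOD PBS arrays, Pcp4 stands apart in the C57BL/6 PBS arrays alone, and Fbp1 and Htr1b in the NOD steady-state arrays. Mki67 and Rsad2 were lower in NOD before culture and H2-DMa lower in NOD after it.

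For most genes of mitosis the interaction was positive, that is, a smaller fall or a larger rise in NOD DCs. Of 29 measured genes of the mitosis and G2/M list, 19 were called higher, none lower and 10 not called, against 4.97% higher and 2.86% lower among all genes. The same shares are the comparison for every interaction count of a list below. The median interaction of the mitotic genes was 0.84, against 0.01 over all genes. The median culture effect was -1.78 in C57BL/6 and -0.92 in NOD, and 28 of the 29 were called lower in NOD at steady state (median -1.06), while 5 were called lower and 2 higher after PBS (median -0.12). In bulk samples, fewer dividing cells and less RNA per dividing cell cannot be told apart.

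Mki67, which encodes the proliferation antigen Ki-67 and whose promoter is printed above, was at 12.18, 12.16, 12.01 and 12.20 in C57BL/6 at steady state and at 10.14, 10.42, 9.84 and 10.05 after PBS. In NOD the values were 10.85, 10.79 and 10.96 before and 11.01, 10.73, 11.29 and 10.44 after culture. Mki67 thus fell in C57BL/6 (-2.03), with no call in NOD (0.01), and the strains did not overlap before culture and, with the order turned, did not overlap after it. The interaction was 2.03 (SE 0.23, adjusted p = 2.92e-05). Tpx2, a spindle assembly factor, rose in both strains, by 0.78 in C57BL/6 and by 3.18 in NOD (interaction 2.40, SE 0.22, adjusted p = 3e-06), but its 4 probe sets ranged from 0.17 to 2.65 and 2 were called.

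In culture 28 of the 29 genes were called down in C57BL/6 and 20 in NOD. Ccnb2, a mitotic cyclin, fell from 9.90 ± 0.21 to 7.90 ± 0.11 in C57BL/6 and from 8.31 ± 0.21 to 7.83 ± 0.30 in NOD (interaction 1.52, SE 0.22, adjusted p = 0.000356). After culture its strain difference was -0.08, within the spread. Nusap1, a spindle protein, had an interaction of 1.62 (SE 0.41, adjusted p = 0.0291). Cdk1, the main mitotic kinase, was not called (interaction 0.53, SE 0.22, adjusted p = 0.237), but was called with the replicate number within condition as a block (0.63, adjusted p = 0.0717). The mean level over the list was 9.23 to 9.49 on the C57BL/6 steady-state arrays, 8.23 to 8.37 in NOD, 7.44 to 7.81 on the C57BL/6 PBS arrays and 7.49 to 7.57 in NOD, so that the strains were separate before culture and overlapped after it.

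Of 29 measured genes of DNA replication and S phase, 6 were called higher, none lower and 23 not called, and 5 were negative (median 0.41). Mcm10, a replication initiation factor, had an interaction of 1.06 (SE 0.21, adjusted p = 0.00609), and Rrm1, a subunit of ribonucleotide reductase, of 0.95 (SE 0.20, adjusted p = 0.0108). The calls of Cdt1 (1.01) and Cdc6 (0.83), which license replication origins, were lost when single arrays were left out, in 4 and 11 of 15 cases. The count of 6 was 2 without NOD steady state replicate 4 and 3 without C57BL/6 steady state replicate 6.

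Interferon-stimulated genes rose in both strains, and most rose by more in NOD. All 30 measured members of the list were called up in culture in both strains, with median culture effects of 3.03 in C57BL/6 and 3.27 in NOD. For the interaction 23 of the 30 were called higher, none lower and 7 not called, and the median was 0.72. At steady state 23 were called lower in NOD (median -0.61), whereas after PBS 3 were called higher and none lower (median 0.08). The mean over the list was 10.55 to 10.66 (C57BL/6) and 9.92 to 10.02 (NOD) on the steady-state arrays and 13.47 to 13.51 and 13.56 to 13.61 on the PBS arrays.

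Rsad2 (viperin), an antiviral enzyme, was at 11.16, 11.25, 11.15 and 11.45 in C57BL/6 at steady state and at 9.82, 9.70 and 9.68 in NOD. After PBS it was at 14.46, 14.45, 14.34 and 14.40 in C57BL/6 and at 14.59, 14.53, 14.48 and 14.42 in NOD. The strains were separate before culture and overlapped after it, and the interaction was 1.61 (SE 0.14, adjusted p = 1.47e-06), with all 3 probe sets called higher. Ifit3, an RNA-binding antiviral protein, rose by 3.20 in C57BL/6 and by 4.62 in NOD (interaction 1.42, SE 0.13, adjusted p = 3.29e-06).

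Its neighbour Ifit2 had an interaction of 1.57 (SE 0.18), and Oas3, an oligoadenylate synthetase, of 1.66 (SE 0.15, adjusted p = 2.59e-06). Mx1, a GTPase that restricts influenza virus, had 0.98 (SE 0.15, adjusted p = 0.000721), and Irf7, the factor that amplifies the response, 0.70 (SE 0.18, adjusted p = 0.0269). Ifnb1, which encodes interferon β, was called lower. It rose from 5.35 ± 0.13 to 9.82 ± 0.33 in C57BL/6 and from 5.38 ± 0.23 to 9.12 ± 0.14 in NOD (interaction -0.73, SE 0.22, adjusted p = 0.0674). Its steady-state levels lay under the lower quartile, its call was lost without C57BL/6 steady state replicate 5, among others, and it was named after its value had been seen. The brightest value of an array was 14.84 to 14.97, and 12 of the 30 interferon genes came within 1 unit of it in both PBS groups. Of these 12 genes 11 were called higher. Among the other 18 genes 12 were called higher, with a median of 0.69. The part of signals near the array maximum in the interferon values was not tested. Probe sets of the Ifit, Oas and p200 families may bind transcripts of close relatives, so single members are uncertain.

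The p200 family of interferon-inducible DNA-binding proteins did not move as a block. Of 8 measured members 4 were called higher and 1 lower, and with 1 array left out 2 to 4 were called higher. Ifi209 (interaction 1.41, SE 0.15, adjusted p = 2.1e-05) and Ifi204 (1.47, SE 0.26, adjusted p = 0.00253) were lower in NOD at steady state, by -1.53 and -1.41, and had no called strain difference after PBS, at -0.12 and 0.05. These are values of the brightest probe set of each gene. The study lists several Ifi204 probe sets, all lower in NOD at steady state, whose fold changes differ widely. Ifi202b was instead much higher in NOD in both conditions, by 3.81 and 4.66. Its interaction of 0.84 (SE 0.25, adjusted p = 0.0621) and that of Ifi203 (-0.74, adjusted p = 0.0867) were lost in 6 and 10 of the 15 cases with 1 array left out.

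**Figure D3:**
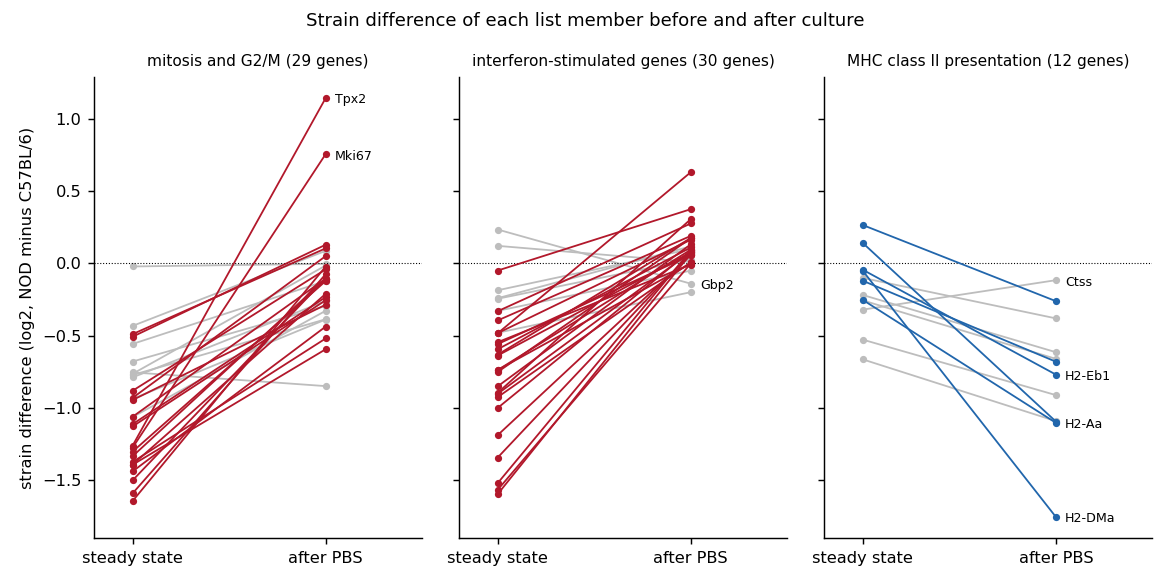
Strain difference (log2, NOD minus C57BL/6) at steady state and after PBS for each measured member of 3 gene lists; red and blue lines are genes called higher and lower in the interaction, grey lines genes not called. The mitotic and interferon-stimulated genes start below 0 with medians of -1.06 and -0.61 and end near 0, at -0.12 and 0.08, while the MHC class II genes go from a median of -0.17 to -0.72.

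Of 23 measured inflammatory cytokines 20 were called up and 1 down in culture in each strain. Among all genes 73.1% in NOD and 77.7% in C57BL/6 were called for culture in either direction. In the interaction 8 were called higher and 2 lower (median 0.53). With 1 array left out the median ranged from 0.29 (without NOD PBS replicate 3) to 0.73 (without NOD PBS replicate 4), and the lower calls, Ifnb1 and Mif (-0.56), from 0 to 2. Csf3, the granulocyte colony-stimulating factor, was at 4.95, 5.42, 4.35 and 4.71 in C57BL/6 and at 4.70, 5.72 and 5.26 in NOD at steady state. All these values lie under the lower quartile of the arrays. After PBS it was at 8.20, 8.93, 7.62 and 7.68 in C57BL/6 and at 10.26, 10.52, 11.69 and 9.99 in NOD, without overlap. The interaction was 2.14 (SE 0.51, adjusted p = 0.021), and for a gene this dim before culture the size of each rise is uncertain.

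Il1a, an alarmin of the IL-1 family, rose by 2.65 in C57BL/6 and by 4.51 in NOD, to 9.04 ± 0.31 and 10.47 ± 0.45 (interaction 1.86, SE 0.35, adjusted p = 0.00378). Il18, of the same family, was at 10.61 and 10.65 in C57BL/6 with no call and rose in NOD from 10.27 to 11.41 (interaction 1.10, SE 0.20, adjusted p = 0.00313). Tnf rose by 3.07 and 4.14 (interaction 1.07, SE 0.25, adjusted p = 0.0159). For Il6 the interaction was 1.99 (SE 0.52, adjusted p = 0.0357), lost without NOD steady state replicate 4 at an adjusted p of 0.118. The count of 8 cytokines was 4 without that array and ranged up to 10 without another. The calls of Il1b (1.11) and Il10 (1.08) were lost in 9 and 10 of the 15 cases with 1 array left out, and Il12b (0.29, adjusted p = 0.578), Il15 (0.58, adjusted p = 0.196) and Ifng (-0.48, adjusted p = 0.61) were not called. With the replicate number within condition as a block Il15 was called (0.62, adjusted p = 0.0594), as were Ifng with array weights (-1.02, adjusted p = 0.0654) and Il12b with probe sets averaged (0.61, adjusted p = 0.0499). Among the NOD steady-state arrays the weights rest largely on replicate 6 (9.23, against 0.812 and 0.517 for replicates 1 and 4).

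Among 36 chemokines and their receptors 11 were called higher and 6 lower, with a median of 0.11. The neutrophil attractants Cxcl1 and Cxcl2 rose by 2.31 and 1.93 in NOD and were not called in C57BL/6, at 0.43 and 0.12. Their interactions were 1.88 (SE 0.50, adjusted p = 0.0392) and 1.81 (SE 0.51, adjusted p = 0.051). In NOD at steady state their values were spread widely, at 10.41, 10.49 and 12.17 for Cxcl1 and at 10.53, 10.69 and 12.58 for Cxcl2, and the highest of each came from replicate 6. Both calls were lost without NOD steady state replicate 1 or 4, with adjusted p of up to 0.136 and 0.172, and that of Cxcl2 without C57BL/6 steady state replicate 6 as well. The count of 11 was 7 without NOD steady state replicate 4.

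Ccr1, an inflammatory chemokine receptor, fell in C57BL/6 (-0.82) and rose in NOD (0.59), an interaction of 1.41 (SE 0.19, adjusted p = 0.000256). Ccr2, which draws monocytes from the blood, fell in both strains (-2.74 in C57BL/6 and -3.74 in NOD, interaction -1, SE 0.22, adjusted p = 0.0136), but of its 4 probe sets 3 were called lower and 1 higher. Cxcl9, an attractant of T cells that depends on interferon γ, was at 9.90, 9.95, 9.19 and 9.74 in C57BL/6 and at 10.19, 10.82 and 10.15 in NOD at steady state. After PBS it was at 13.73, 13.65, 13.06 and 13.74 in C57BL/6 and at 11.71, 12.63, 11.38 and 11.57 in NOD. The NOD arrays were the higher ones before culture and the lower ones after it, and the interaction was -2.41 (SE 0.36, adjusted p = 0.000609), opposite to Cxcl10 (0.62, SE 0.15, adjusted p = 0.0275).

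Feedback regulators of MAP kinase signalling were called in 6 of 13 cases, 5 higher and 1 lower (median 0.54), against 4.97% and 2.86% of all genes. Dusp16, a phosphatase of JNK and p38, went from 10.42 ± 0.16 to 10.34 ± 0.20 in C57BL/6 and from 9.83 ± 0.17 to 11.58 ± 0.12 in NOD (interaction 1.84, SE 0.18, adjusted p = 4.95e-06). Spry2, an inhibitor of receptor tyrosine kinase signalling, was not called in C57BL/6 (9.16 and 9.17) and rose in NOD from 8.33 to 10.38 (interaction 2.04, SE 0.28, adjusted p = 0.000248). Dusp4, a phosphatase of ERK, rose by 2.41 and 3.69 (interaction 1.28, SE 0.20, adjusted p = 0.000969). Egr1, an immediate early transcription factor downstream of ERK, fell in both strains, from 12.50 ± 0.35 to 9.55 ± 0.12 in C57BL/6 and from 11.53 ± 0.80 to 10.84 ± 0.13 in NOD (interaction 2.26, SE 0.35, adjusted p = 0.000727). It was among 4 of 24 immediate early genes called higher, a count that was 2 without C57BL/6 steady state replicate 6 or NOD steady state replicate 4 and 7 without NOD steady state replicate 6. Nr4a1, an orphan nuclear receptor, fell by 3.09 and 1.56 (interaction 1.52, SE 0.29).

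In the NF-κB pathway 4 of 18 subunits and feedback regulators were called higher and none lower (median 0.35), and 2 to 4 with 1 array left out. Nfkbiz, an atypical IκB protein that helps to induce Il6 and Csf3, fell in C57BL/6 (-1.05) and was not called in NOD (0.35), an interaction of 1.40 (SE 0.27, adjusted p = 0.00535) with all 3 probe sets called. The calls of Tnfaip3 (A20) and Traf1 were lost in 12 and 13 of the 15 cases with 1 array left out. Nlrp3, the inflammasome sensor, rose by 0.88 in C57BL/6 and by 2.28 in NOD (interaction 1.40, SE 0.27, adjusted p = 0.004).

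Of the 20 Toll-like receptors and adaptors 5 were called higher and 1 lower, with a median of -0.12. Cd14, the co-receptor that hands LPS to the TLR4 complex, fell from 13.19 ± 0.18 to 12.36 ± 0.37 in C57BL/6 and rose from 13.28 ± 0.16 to 14.02 ± 0.12 in NOD. Its interaction was 1.57 (SE 0.23, adjusted p = 0.000374). Tlr2 (0.83, adjusted p = 0.0144) and Tlr3 (0.83, adjusted p = 0.000985) were called higher, whereas Tlr4 was not called (-0.29, SE 0.21, adjusted p = 0.544).

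Of 23 growth factors 5 were called higher and none lower (median 0.18). Inhba, a subunit of activin A, rose from 5.57 ± 0.39 to 10.52 ± 0.46 in C57BL/6 and from 5.73 ± 0.18 to 12.44 ± 0.29 in NOD (interaction 1.75, SE 0.32, adjusted p = 0.00299), though its other probe set was at 0.27. Hbegf, an EGF receptor ligand, rose by 1.60 and 3.34 (interaction 1.74, SE 0.42, adjusted p = 0.0223). Of 17 metalloproteinases and inhibitors 5 were called higher and 2 lower. Mmp13, a collagenase, rose by 3.12 and 5.03 (interaction 1.91, SE 0.33), and Mmp9, a gelatinase, fell by 3.38 and 2.05 (interaction 1.33, SE 0.23, adjusted p = 0.00198). Fgf2 was not called (0.21, adjusted p = 0.807).

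Metabolic and stress genes held single large values within lists of which most members were not called. In the unfolded protein and amino acid response 4 of 18 genes were called higher and 2 lower (median 0.02), against 4.97% and 2.86% of all genes. With 1 array left out 2 to 4 were called higher. Asns, asparagine synthetase, was not called in C57BL/6 (8.71 and 8.78) and rose in NOD from 8.32 to 10.20 (interaction 1.81, SE 0.31, adjusted p = 0.00193). Trib3, a pseudokinase induced by ATF4, rose by 1.53 and 2.84 (interaction 1.31, SE 0.26). Ddit4, an inhibitor of mTORC1, had an interaction of -1.62 (SE 0.33, adjusted p = 0.00768) and fell in NOD from 10.77 to 9.62. Fabp4, a fatty acid binding protein of macrophages and fat cells, rose by 1.16 and 3.21 (interaction 2.05, SE 0.34, adjusted p = 0.00125), with all 4 probe sets called.

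Several genes of MHC class II presentation fell more in NOD. Of 12 measured genes 6 were called lower and none higher, and 11 of 12 were negative (median -0.48). With 1 array left out 4 to 6 were called, and with the replicate number within strain as a block only H2-DMa was. At steady state none was called higher and 2 lower in NOD (median -0.17), and after PBS 10 of 12 were called lower (median -0.72). Among all genes 11.6% and 15.4% had a called strain difference in either direction. H2-DMa, a chain of the peptide editor H2-M, was at 12.54, 12.88, 12.93 and 12.23 in C57BL/6 and at 12.42, 12.94 and 12.41 in NOD at steady state. After PBS it was at 11.50, 11.06, 10.98 and 11.11 in C57BL/6 and at 9.48, 9.46, 9.27 and 9.42 in NOD. The strains overlapped before culture and were apart after it, with an interaction of -1.70 (SE 0.24, adjusted p = 0.000304), called for 1 of the 2 probe sets.

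The class II chains themselves shifted by less than H2-DMa. H2-Aa was not called in C57BL/6 (14.07 ± 0.11 and 13.88 ± 0.08) and fell in NOD from 13.82 ± 0.04 to 12.77 ± 0.25 (interaction -0.85, SE 0.17, adjusted p = 0.00607), with 2 of its 4 probe sets called. H2-Eb1 had an interaction of -0.72 (SE 0.17, adjusted p = 0.0159) and H2-Ab1 of -0.56 (SE 0.13, adjusted p = 0.0213), while the invariant chain Cd74 (-0.28, adjusted p = 0.364) and the protease Ctss (0.20, adjusted p = 0.515) were not called. The calls of H2-DMb2 (-1.23) and Lgmn (-0.53) were lost in 4 and 11 of the 15 cases with 1 array left out. At steady state the strain differences of H2-Eb1 and H2-Ab1 were -0.04 and -0.12, with no call. In MHC class I presentation 3 of 16 genes were called higher and none lower, among them the peptide transporter Tap1 (0.96, SE 0.18, adjusted p = 0.00343) and the class I transactivator Nlrc5 (0.71, SE 0.13, adjusted p = 0.0035).

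Of 24 DC maturation genes 4 were called higher and 1 lower, with a median of 0.05. Cd40, the receptor for T cell help, rose by 2.08 in C57BL/6 and by 2.85 in NOD (interaction 0.77, SE 0.15, adjusted p = 0.00449). Tnfsf4 (OX40 ligand) rose from 5.34 to 9.28 and from 5.41 to 10.38 (interaction 1.03, SE 0.19, adjusted p = 0.00393). Ido1, which degrades tryptophan and restrains T cells, rose from 5.82 ± 0.07 to 9.90 ± 0.23 in C57BL/6 and from 5.69 ± 0.17 to 8.59 ± 0.25 in NOD (interaction -1.18, SE 0.20, adjusted p = 0.00159). Its paralogue Ido2 was called lower as well (-1.20, SE 0.23, adjusted p = 0.00503).

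These 2 were the only lower calls among 24 tolerance genes, of which 6 were called higher, among them Arg2 (1.22, SE 0.29, adjusted p = 0.0185). The count of 6 was 2 without NOD steady state replicate 4 and 3 without C57BL/6 steady state replicate 1 or 6. Of 16 markers of CD8α- DCs 2 were called higher, 1 lower and 13 not called, and 10 were negative (median -0.14). The lower call was Cd4 (-0.95, SE 0.25, adjusted p = 0.0394), which was lost without NOD steady state replicate 4. Irf4, a transcription factor of these DCs, was not called in NOD (10.86 and 10.83) and fell in C57BL/6 from 11.16 to 10.05 (interaction 1.09, SE 0.21, adjusted p = 0.00478). Kmo, an enzyme of tryptophan breakdown that marks these DCs, fell by 2.85 and 1.32 (interaction 1.53, SE 0.20, adjusted p = 0.000141). Itgax was not called (0.33, adjusted p = 0.322).

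The Reg family of secreted lectin-like proteins, which acinar and islet cells make, is among the groups the study chose on these samples, so its count is not independent evidence of its direction. Of 7 members 5 were called higher and none lower (median 0.99), and 2 to 5 with 1 array left out. Reg3b fell in C57BL/6 from 8.93, 8.63, 9.12 and 8.17 to 7.97, 6.64, 6.96 and 7.04. In NOD it was at 6.89, 6.57 and 6.45 before and at 6.84, 7.06, 6.92 and 6.86 after culture, overlapping the cultured C57BL/6 arrays. The interaction was 1.84 (SE 0.34, adjusted p = 0.00334), and Reg3a had 1.62 (SE 0.30, adjusted p = 0.00375). Reg2 was at 12.56 ± 0.39 in C57BL/6 at steady state and at 9.41 ± 1.80 after PBS, with single arrays at 11.63, 7.25, 9.10 and 9.65. Its interaction of 2.64 (SE 0.84, adjusted p = 0.092) and the calls of Reg3d and Reg3g were lost in 11, 12 and 12 of the 15 cases with 1 array left out. Reg1 (0.08, SE 0.96, adjusted p = 0.984) was not called. Of 15 acinar transcripts, of which 14 fell in C57BL/6 and 15 in NOD, none was called in the interaction. Their interactions had SEs of 0.607 to 1.33. Their mean lay at 8.8 to 11.95 on the C57BL/6 PBS arrays and at 8.78 to 12.36 on the NOD PBS arrays. At that spread an interaction of the size of that of Reg3b could go uncalled. The part of acinar RNA in the Reg values was not tested.

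Of 41 measured genes of the tables of the study 16 were called higher and 3 lower, with a median of 0.34. The same caution holds for them, because the study picked them on these samples, for strain differences or for responses to LPS. The count of 16 was 8 without NOD steady state replicate 4 and 10 without NOD PBS replicate 2. Nrcam, a neuronal adhesion molecule, was at 10.59 ± 0.20 in NOD at steady state and at 8.93 ± 0.38 after PBS, while C57BL/6 stayed between 4.91 and 6.17 (interaction -1.92, SE 0.32, adjusted p = 0.00138). For the other neuronal genes of the tables, Ank2 (0.34, adjusted p = 0.639) and Cacna1a (-0.12, adjusted p = 0.873), the strain difference was called in both conditions and the interaction was not, though with probe sets averaged that of Cacna1a was (-0.52, adjusted p = 0.00762). Trem1, an amplifier of myeloid activation, was called higher (0.94, SE 0.24, adjusted p = 0.0323), and Thbs1 (-0.07, adjusted p = 0.948), Bcl2 (-0.33, adjusted p = 0.46) and Cd24a (-0.05, adjusted p = 0.961) were not.

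**Figure D4:**
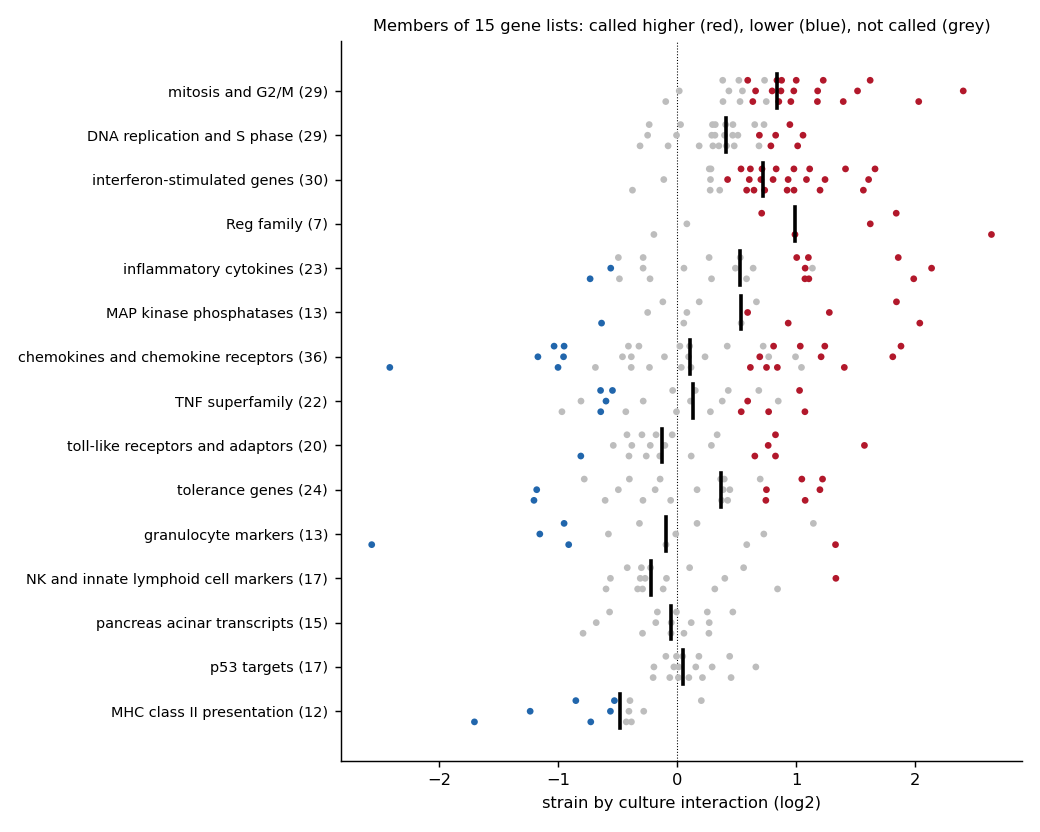
Interaction (log2, x axis) of every measured member of 15 gene lists, with the number of members in brackets and the median as a black bar. Red points were called higher, blue points lower and grey points not called. The mitotic list has its median at 0.84 and the interferon list at 0.72, and the MHC class II list lies furthest to the left of those shown, at -0.48.

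Markers of other cell types that the sorted gate could hold were read beside these results. Of 17 NK and innate lymphoid markers 14 were called lower in NOD at steady state and 11 after PBS, and the mean over the list was 9.25 to 9.55 (C57BL/6) and 8.28 to 8.53 (NOD) before culture and 9.75 to 10.21 and 8.74 to 9.27 after it. In the interaction 1 of the 17 was called, Gzma (1.33, SE 0.41, adjusted p = 0.0831), whose call was lost in 11 of the 15 cases with 1 array left out, and the defining marker Ncr1 was at -0.09. Of 13 granulocyte markers 1 was called higher and 4 lower, and 1 to 4 lower with 1 array left out. S100a9 had an interaction of -2.57 (SE 0.83, adjusted p = 0.0974), lost in 11 of the 15 cases, with NOD PBS arrays at 10.71, 9.92, 10.88 and 7.25. Its partner S100a8 was at 0.73 (adjusted p = 0.391). The mean of the granulocyte list was 7.93 to 8.13 and 7.71 to 7.85 before and 8.54 to 9.14 and 8.003 to 8.59 after culture.

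Of 25 macrophage markers 5 were called higher and 4 lower (1 to 4 lower with 1 array left out), C1qa (-1.13, SE 0.32, adjusted p = 0.0495) among the latter and Mrc1, the mannose receptor (0.85, SE 0.19, adjusted p = 0.0123), among the former. The T cell list had 1 lower call in 11, and the B cell list (12 genes), the islet list (13) and the p53 targets (17) had none, with all 12 B cell genes negative (median -0.40). The B cell median was -0.10 without NOD steady state replicate 6, and up to 2 B cell genes were called lower with 1 array left out and 6 with array weights. For NOD steady state the weighted fit rests largely on that same array. The part of such cells in the interaction was not tested. Ctsk, a lysosomal collagenase, and Cd200r4, an activating receptor of the CD200R family, were called lower at -2.11 (SE 0.34) and -2.12 (SE 0.31). The NOD arrays of Cd200r4 lay between 3.42 and 4.30 in both conditions, under the lower quartile, so the fall of 0.45 there was not measurable. In C57BL/6 it rose from 9.10 to 10.77. Oxidative phosphorylation and ribosomal protein genes, of which most fell in culture in both strains, had 1 lower call in 24 and 1 in 16.

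Limits of the design touch all of these values. Probe sets of the same gene differed in places, as for Pomk, Tpx2 and Inhba. Whether the probes match the transcripts of both strains equally well was not tested. The submitters describe the culture as another experiment, whereas the methods describe a split of each sort, so culture and experiment cannot be told apart. With the replicate number within each strain as a block over both conditions, 649 probe sets were called and 99 of the 166 called genes named by rule lost their call. Only 2 replicate numbers per strain occur in both conditions, so that fit has less power than the main fit. None of the 166 changed sign under any setting tried.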

How the data were processed

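RNA of sorted pancreatic DCs was hybridized to Affymetrix mouse arrays. The authors normalized the scans by RMA in BRB-ArrayTools (version not given in the sources used here) and deposited log2 expression values per probe set. RMA gives no detection call, so a level under the lower quartile of an array is treated as dim. Of 45101 probe sets 64 controls were left out, and 45037 were fitted in limma 3.58.1 (R 4.3.3) with 1 coefficient for each of the 4 groups of 3 or 4 arrays (residual df 11), a number that limits the precision of every value. Calls were made at a Benjamini-Hochberg adjusted p under 0.1, the false discovery rate used in the study. The labels do not tie arrays of different conditions to the same pool, and p-values cover only how far arrays of 1 group differ, which may be technical. No column of per-sample values was left unused (0). The scripts were tested on simulated data.

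Each gene was represented by the probe set with the highest mean among those annotated to no other gene, giving 18194 genes. Genes were named by rule: the 15 largest called interactions in each direction, up to 4 called members with the largest interaction in each of 54 lists (844 of 942 genes measured), the genes of the study's tables and the 5 largest with opposite culture effects. The members and lists were chosen with earlier results of these data known. Promoter sequences and gene order come from RefSeq tables.

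Replicate numbers were checked for pairing by the correlation of residuals over probe sets. Between strains within a condition it was 0.109 to 0.433 at steady state (3 pairs) and 0.137 to 0.32 after PBS (4 pairs). Between steady state and PBS it was 0.0996 to 0.277 in NOD and -0.0328 to 0.177 in C57BL/6 (2 pairs each). Pairs of different numbers between the strains lay at -0.526 to 0.494 at steady state and at -0.332 to 0.143 after PBS. These ranges overlap those of the same numbers, so the check does not settle whether the numbers pair the strains within a condition. The main fit has no block, and the block within condition was an alternative chosen after seeing the data. Alternatives changed the threshold, the filter on dim probe sets, the arrays in the fit, the scaling, the variance model, the replicate block and the summary of probe sets, and left out each array in turn.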

Additional observations from a re-analysis of the deposited data

Results flagged for a closer look

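The culture effect differed between the strains, by the interaction term, for 3063 probe sets. In the groups of 4 arrays, 564 sets of values were checked for a single array far from the others, by its gap to the nearest of them divided by the whole range of the group. This ratio was above Dixon's 95% critical value in 27 sets, against 28 that chance gives at 1 in 20. NOD PBS replicate 4 stood apart in Arap3 (lowest, ratio 0.8631), Tafa5 (highest, ratio 0.8776) and Hspa1b (lowest, ratio 0.8529). C57BL/6 steady state replicate 5 stood apart in Cacnb4 (highest, ratio 0.878). NOD PBS replicate 2 stood apart in Cacnb4 (highest, ratio 0.8718). NOD PBS replicate 3 stood apart in Pomk (lowest, ratio 0.9777) and Ier2 (highest, ratio 0.8404). C57BL/6 PBS replicate 4 stood apart in Htr1b (lowest, ratio 0.9528), Ccr2 (highest, ratio 0.8731) and Cd24a (lowest, ratio 0.9231). C57BL/6 PBS replicate 3 stood apart in Cxcl9 (lowest, ratio 0.8629), Nusap1 (lowest, ratio 0.9415), Irf4 (lowest, ratio 0.9183), Trib3 (lowest, ratio 0.8456), Txnrd1 (highest, ratio 0.841), Fabp5 (lowest, ratio 0.8518), Pdgfa (lowest, ratio 0.9081) and Il1f9 (highest, ratio 0.9571). NOD PBS replicate 1 stood apart in Rrm1 (highest, ratio 0.8489). C57BL/6 steady state replicate 6 stood apart in Zc3h12a (highest, ratio 0.8494), H2-Aa (lowest, ratio 0.8331), C1qc (lowest, ratio 0.867), Rps19 (lowest, ratio 0.8773) and Cacna1a (highest, ratio 0.9384). C57BL/6 PBS replicate 1 stood apart in Reg3a (highest, ratio 0.8291) and Cdh5 (lowest, ratio 0.9586). C57BL/6 PBS replicate 2 stood apart in Lgmn (lowest, ratio 0.8308).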

How the results depend on the processing

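The probe sets with an interaction (3063, of which 1793 were higher and 1270 lower) numbered 2037 (788 lower) at an adjusted p under 0.05 and 5586 (3051 higher, 2535 lower) with array weights. They numbered 1639 (1015 and 624) with 1 probe set per gene and 1910 (1138 and 772) with probe sets averaged per gene, where fewer features were tested. The array weights were 9.23 for NOD steady state replicate 6 and 0.812 and 0.517 for replicates 1 and 4. Counts with array weights thus rest largely on 1 array of that group. The replicate block within condition, chosen after seeing the data, gave 4828 (2219 lower), the replicate block within strain 649 (406 and 243) and the replicate block over both 4150. With 1 array left out the count lay between 1955 and 3232 (higher 1142 to 1916, lower 813 to 1367), lowest without NOD steady state replicate 4, and without NOD steady state replicate 6 there were 834 lower. The cause was not tested. Culture effects were called for 17184 (NOD) and 17855 (C57BL/6) probe sets without the dimmer 50%, 13522 and 14304 with 1 probe set per gene, and 13774 and 14498 with the mean. Strain differences at steady state numbered 15590 with array weights, 3105 to 5418 with 1 array left out, 2308 with 1 probe set per gene and 2715 with the mean, and after PBS 3051 and 3456 with the last 2 settings. Of 166 called named genes 57 kept the call in every setting, 99 lost it in the replicate block within strain and 55 with 1 array left out. The replicate block within condition removed 1 call among them. Of the 22 uncalled named genes 7 gained a call in at least 1 setting, Cdk1 and Il15 in the replicate block within condition, and 7 changed sign: Cd24a (0.0787 in the block within strain, -0.3109 to 0.09296 with 1 array left out), Il1f9 (-0.5781 to 0.04286), Thbs1 (0.1327 with array weights, 0.03954 with the mean, -0.2764 to 0.1033), Cd200r3 (-0.0912 in the block within strain, -0.1742 with the mean, -0.07248 to 0.2549), Chil3 (0.2522 with array weights, 0.02127 in the block within strain, -0.4927 to 0.2699), Reg1 (-0.01894 in the blocks over both and within condition, -1.12 in that within strain, -0.7729 to 0.5155) and Csf2 (-0.3426 in the block within strain). Dim levels and signals near the array maximum limit single fold changes.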

Other observations

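Called genes that are next to each other in the RefSeq order of protein-coding genes formed 172 pairs, of which 135 were called in the same direction and 37 in opposite directions. Rnf225, with an interaction of -4.76, lies beside Zfp324, which was at -2.23 (adjusted p = 2.65e-08) and was picked after its value had been seen. Hgsnat and Pomk, Ifit2 and Ifit3, Cxcl1 and Cxcl2, and Mmp12 and Mmp13 were pairs of the same direction. With 905 of the 1425 called genes called higher and 520 lower, many pairs would share a direction whatever their position. The number of neighbouring pairs expected without any link was not computed, and several pairs are close relatives. No test of these pairs was made.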
